A study of Mus musculus with 14 samples.

Results

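The genes described here are 37 genes of brown and white adipocytes, chosen by name around Ucp1, in bulk RNA-seq of mouse aortic valve leaflets. They were 37 of the 56941 genes in the count table and were proposed because Ucp1 and other adipocyte genes differed between AngII-infused and untreated mice. The AngII and Ctrl libraries therefore chose them, and that comparison is given below as a description without a test. The list held 14 thermogenic genes, which are enriched in brown or beige adipocytes, and 23 general adipocyte genes. All 37 passed the filter of a mean of at least 10 counts over the 14 libraries, as did 19145 genes in all.

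Adipocytes store triglyceride in lipid droplets and release it as fatty acids. White adipocytes hold 1 large droplet and secrete hormones such as leptin and adiponectin, while brown adipocytes hold many small droplets and many mitochondria. Brown adipocytes burn fatty acids for heat through UCP1, a carrier of the mitochondrial inner membrane that lets protons return to the matrix without making ATP. Fat lies around the heart, the aortic root and the great vessels, and several genes of fat oxidation and fat uptake are also expressed by heart muscle and by capillary endothelium.

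All 14 animals were male wild-type C57BL/6J mice, 8 weeks old at the start, and all ate the hypercholesterolemic Breslow Western Diet. The 4 Ctrl mice were untreated. The 4 AngII mice received angiotensin II at 1000 ng/kg/min from a subcutaneous osmotic pump for 28 days. The 2 LY mice received LY272015, which blocks the HTR2B receptor for serotonin, at 3 mg/kg by intraperitoneal injection, and the 4 AngII+LY mice received both agents. The treatment labels of LY 2 and of AngII+LY 2, 3 and 4 carry other compound numbers after LY, so these mice were grouped by their titles, and the injection schedule differs between label fields. The infused mice lived another 48 hours after the pump was removed, so that the infusion and its withdrawal cannot be told apart. No label said that animals were pooled. Library totals ranged from 45656578 to 69355531 counts for the Ctrl mice and from 20990655 to 73128220 for the AngII mice. They ranged from 41610931 to 63011219 for the AngII+LY mice and were 58316854 and 67441113 for the LY mice. AngII 4 was the shallowest, and the precision of a low gene was poorest there.

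The leaflet label was checked against marker genes. The 8 markers of valve interstitial cells together took 1.19% to 1.79% of the counts for the AngII mice, 0.897% to 1.87% for the Ctrl mice, 0.476% to 0.889% for the AngII+LY mice and 1.13% to 1.9% for the LY mice, with Dcn as the most abundant. The 4 core adipocyte markers (Adipoq, Plin1, Cidec and Cfd) took 0.00114% to 0.00557% for the AngII mice, 0.00707% to 0.0192% for the Ctrl mice, 0.00189% to 0.00834% for the AngII+LY mice and 0.00566% to 0.0126% for the LY mice. None of the 4 markers was at 0 in any library. These shares do not measure how much RNA a cell type gave. The 10 cardiomyocyte markers, led by Tnnt2, took 0.765% to 1.5% for the AngII mice, 0.81% to 3.32% for the Ctrl mice, 1.81% to 4.33% for the AngII+LY mice and 1.53% to 1.86% for the LY mice. All AngII+LY libraries lay above all AngII libraries in that share. The 5 smooth muscle markers took 0.0298% to 0.0800% for the AngII mice, 0.0451% to 0.887% for the Ctrl mice, 0.0901% to 0.327% for the AngII+LY mice and 0.0668% to 0.0766% for the LY mice, the 6 endothelial markers 0.135% to 0.234%, 0.128% to 0.245%, 0.106% to 0.266% and 0.188% to 0.211%, and the 5 macrophage markers 0.0309% to 0.0627%, 0.0342% to 0.128%, 0.0331% to 0.123% and 0.0569% to 0.0956% in the same order. In bulk tissue, fewer cells of a type and less RNA per cell cannot be told apart.

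4 libraries stood apart from their groups. Ctrl 1 was rich in smooth muscle RNA, with 78076 normalized counts of Myh11 against 377 to 10735 in the other Ctrl mice. Ctrl 2 and AngII+LY 4 were rich in atrial muscle RNA, with 208649 and 155866 normalized counts of Myl7, the atrial myosin light chain, against 1842 to 35811 in the other 12 mice. AngII 4 was the library of lowest depth. Values without these 4 libraries are given beside the counts they move. Normalized counts below are TMM-normalized counts, scaled to the mean library.

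**Figure D1:**
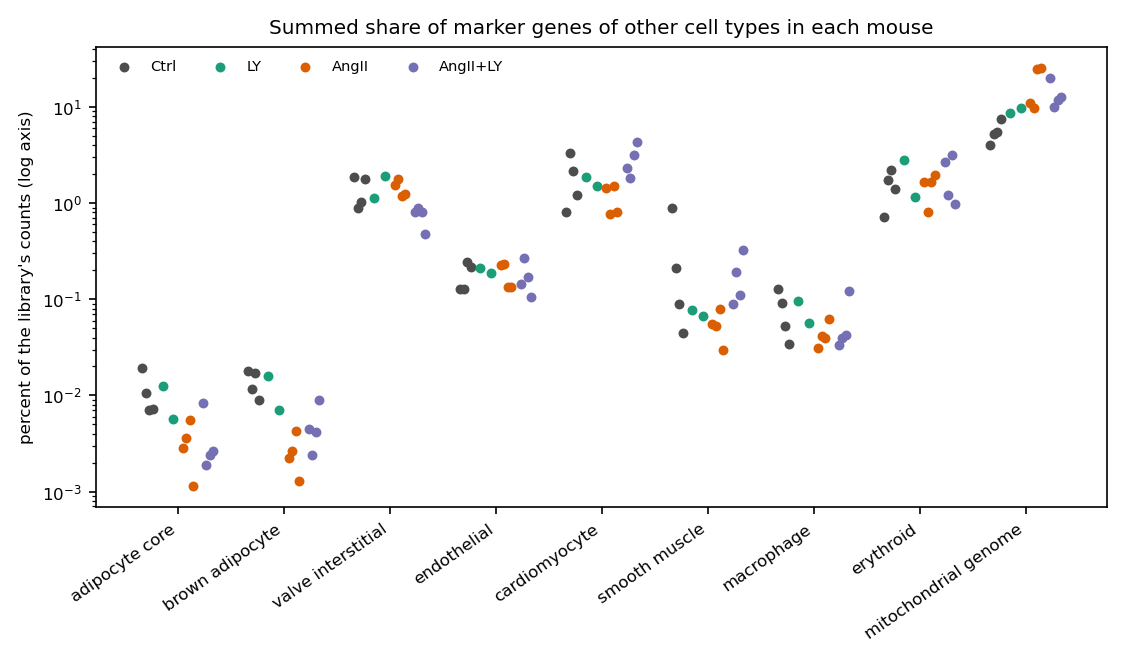
Percent of each library's counts (log axis) taken by the summed marker genes of each cell type and by the mitochondrial genome, 1 point per mouse, coloured by group. The adipocyte and brown adipocyte markers lie below 0.0192% or at it in every library, while the cardiomyocyte markers of the AngII+LY mice lie at 1.81% to 4.33%.

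The 300 bases before the start of the GENCODE canonical transcript in GRCm39 were read for each member. That of Adipoq, the general adipocyte gene against which Ucp1 is set below, is shown at chr16:22964986-22965285 on the plus strand, written 5′ to 3′ on the strand of the gene. It lies in an intron of a longer annotated transcript of Adipoq. Capitals mark CCAAT on either strand.
Adipoq: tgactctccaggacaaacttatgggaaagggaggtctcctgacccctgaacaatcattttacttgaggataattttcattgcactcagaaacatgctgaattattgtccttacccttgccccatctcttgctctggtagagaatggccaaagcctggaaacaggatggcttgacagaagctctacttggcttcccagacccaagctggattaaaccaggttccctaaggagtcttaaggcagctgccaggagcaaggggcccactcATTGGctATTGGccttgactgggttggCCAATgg
This window held CCAAT at 34, 27 and 7 bases before the start. The window of Ucp1, which overlaps first exons of other annotated Ucp1 transcripts, held none of the 6 motifs searched. Among the same windows of 21770 genes, both strands searched, CCAAT was present in 40.5% and in 11 of 37 members, and AGGTCA, a binding element of nuclear receptors such as PPARG, in 15.9% and in 3 of 37. TATAAA was present in 14.2% and 4 members, TTGNNNCAA in 6.13% and 4, TGACGTCA, the cyclic AMP response element, in 1.75% and 2 (Dio2 and Ppargc1a), and the DR1 element, a direct repeat of AGGTCA spaced by 1 base, in 0.0367% and none. These matches describe the windows only.

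Levels differed widely among the members. In CPM (reads scaled to library size) per kilobase of exon, the Ctrl mean was 1175 for Cox7a1 and 277 for Cox8b, subunits of cytochrome c oxidase that heart muscle also expresses, and 166 for Fabp4, a fatty acid carrier of adipocytes and capillary endothelium. On the same scale Ucp1 stood at 40.2, rank 1012 of the 19043 tested genes with a length, above Cidea at 20.3, Cidec at 11.6, Adipoq at 6.04 and Plin1 at 1.65. Lep stood at 0.682, and Tshr, Acvr1c and Cpt1b were lowest at 0.0773, 0.0649 and 0.0639. The 6 members that heart muscle also makes, by background knowledge, are Cox7a1, Cox8b, Cpt1b, Ppargc1a, Lpl and Pnpla2. Kcnk3 and Plin4, which muscle also expresses, were not counted among them. Of the 6, 51.5% of the exon bases of Cox8b lie under exons of Psmd13 on the opposite strand. Its count is therefore uncertain without knowledge of the strand setting. Cpt1b shares 68.5% of its exon bases with Gm44502 on the same strand, so that its count is uncertain under any strand setting.

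**Figure D2:**
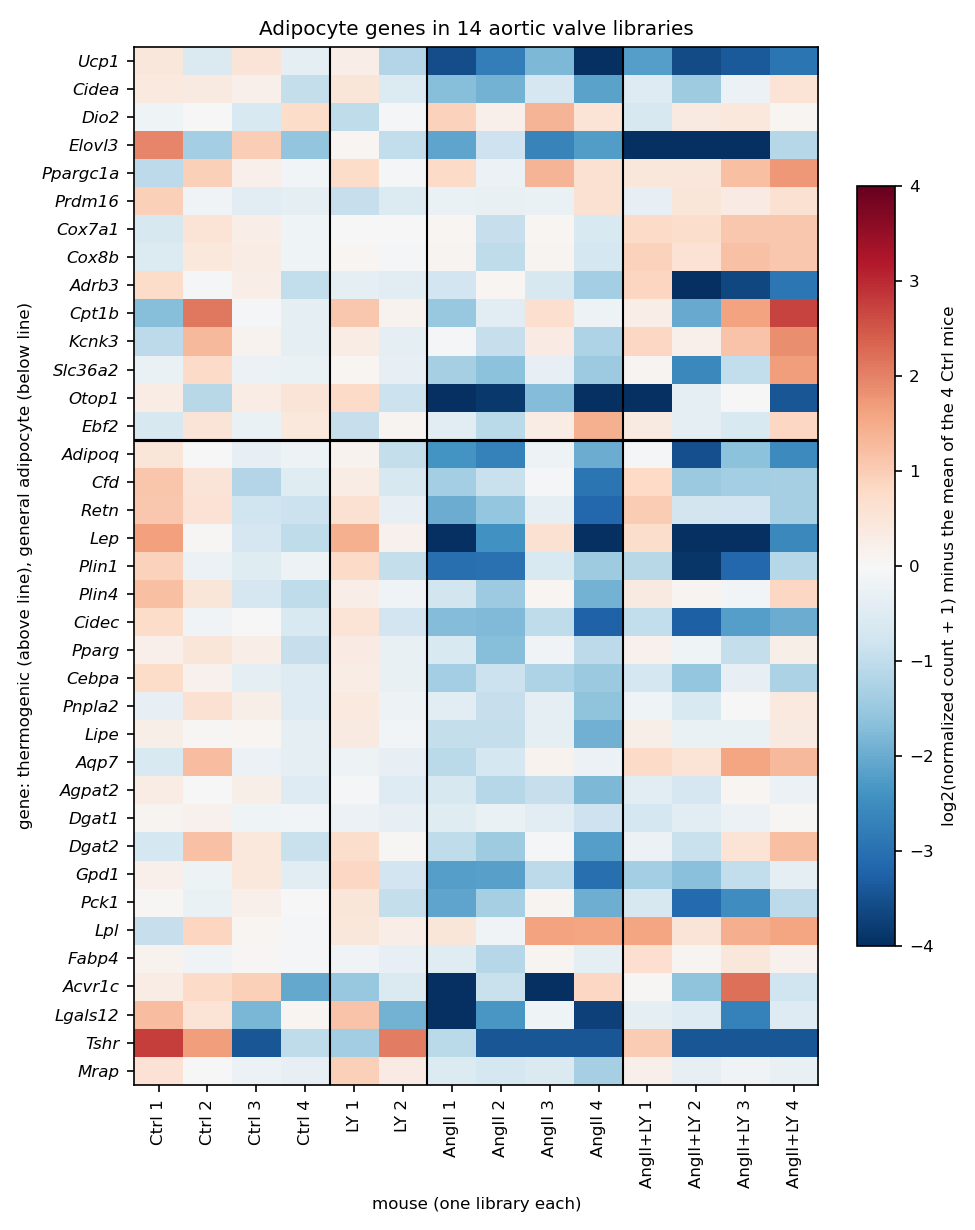
Heat map of the 37 members (rows; 14 thermogenic genes above the line, 23 general adipocyte genes below it) in 14 mice (columns). Colour is log2(normalized count + 1) minus the mean of the 4 Ctrl mice, limited to 4 in either direction. Ucp1 and Cidec are blue in all 8 infused mice, while Cox7a1, Cox8b and Aqp7 are red in the 4 AngII+LY mice.

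Among the thermogenic genes, Ucp1 separated the infused mice from the rest. Ucp1 stood at 5009.6, 2417, 5206 and 2743 normalized counts in the Ctrl mice, 4405 and 1618 in the LY mice, 307, 529.9, 1037 and 205 in the AngII mice and 787, 305, 354 and 482 in the AngII+LY mice. Every one of the 8 infused mice lay below every one of the 6 mice without infusion, and the AngII and AngII+LY values overlapped. Over all genes tested, 0.611% were lower without overlap in the 8 infused mice and 0.47% were higher. Of the 37 members, 2 were lower in this way, Ucp1 and Cidec, and none was higher; without the 4 libraries that stood apart they were 3 lower (Ucp1, Cidec and Gpd1) and 1 higher (Prdm16), against 1.81% and 1.43% of all genes. Part of this split rests on the AngII and Ctrl mice that chose the genes.

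Cidea, a droplet protein typical of brown adipocytes, was not ordered like Ucp1 in the AngII+LY mice. Cidea stood at 2756, 2705, 2455 and 1089 normalized counts in the Ctrl mice, 2953 and 1452 in the LY mice, 651, 567, 1337 and 483 in the AngII mice and 1476, 786, 1789.6 and 3098 in the AngII+LY mice. The AngII+LY range took in those of Ctrl and LY, and 3 of the 4 AngII+LY mice lay above all 4 AngII mice. Its log2 difference from AngII was 1.23 ± 0.44 (SE; edgeR adjusted p = 0.127), or 0.67 without the 4 libraries that stood apart. The AngII mice took part in the choice of genes, so that a higher value in AngII+LY was favoured by it. The log2 difference of Cidea from LY was -0.30 ± 0.53, and 16.9% of its exon bases lie under a transcript of the opposite strand.

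Elovl3, which elongates fatty acids in brown fat, was low and scattered. Elovl3 stood at 260.3, 25.0, 133 and 21.5 normalized counts in the Ctrl mice, 69.8 and 33.2 in the LY mice, 14.5, 36.8, 9.61 and 13.2 in the AngII mice and 0, 1.18, 0 and 29.7 in the AngII+LY mice. In AngII+LY, 2 mice had no count, and AngII+LY 4 alone reached the lower Ctrl values, while none reached the LY values. Its fitted fold changes depend on how zeros are treated and are not bounds, and neither are those of Otop1, Lep, Acvr1c and Tshr. Otop1, a proton channel of brown fat, stood at 0 to 30.04 in AngII, 46.7 to 144 in Ctrl, 4.12 to 101 in AngII+LY and 56.0 to 173 in LY. Slc36a2, an amino acid carrier of the brown adipocyte surface, stood at 454 to 926 in Ctrl and 176 to 436 in AngII, and its AngII+LY values ran from 91.1 to 1731. Its highest values were those of AngII+LY 4 and Ctrl 2, the libraries rich in Myl7, and the part of muscle RNA in them was not tested. The AngII values of Otop1 and Slc36a2 lay below all Ctrl and all LY values, and their AngII+LY values reached both ranges. Adrb3, the adrenergic receptor of adipocytes, stood at 46.3 to 125 in AngII and at 216, 1.18, 8.64 and 15.3 in the AngII+LY mice, against 59.6 to 200.4 in Ctrl.

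Dio2 and the regulators of the brown programme lay close to or above Ctrl in the infused mice. Dio2 makes active thyroid hormone. Dio2 stood at 714, 826, 536 and 1363 normalized counts in the Ctrl mice, 400.5 and 790.1 in the LY mice, 1528, 937, 2078 and 1194 in the AngII mice and 515, 1039, 1079.8 and 858 in the AngII+LY mice. The AngII and Ctrl ranges overlapped, all AngII mice lay above both LY mice, and the AngII difference from Ctrl was 0.74 ± 0.35 on the log2 scale. Ppargc1a, the coactivator of mitochondrial biogenesis, overlapped between all groups. Ppargc1a stood at 343, 1372, 819 and 649 normalized counts in the Ctrl mice, 1171 and 670.2 in the LY mice, 1215, 606, 1834 and 1082 in the AngII mice and 972, 974, 1638 and 2379 in the AngII+LY mice. Prdm16, which commits precursors to the brown fate, stood at 266 and 342 in the LY mice and 399.6, 709, 632 and 767 in the AngII+LY mice, without overlap, at a log2 difference of 1.04 ± 0.45 (edgeR adjusted p = 0.588). Against Ctrl its AngII+LY difference was 0.20 ± 0.35. Ebf2, a factor of brown precursors, ranged from 207 to 1171 within AngII, a span that took in all values of the other 3 groups.

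The muscle-type cytochrome oxidase subunits were highest in AngII+LY. Cox8b stood at 21866, 42516, 39543 and 28483 normalized counts in the Ctrl mice, 34105 and 30426 in the LY mice, 34865, 15744, 34489 and 19774 in the AngII mice and 60068, 48241, 72386 and 68231 in the AngII+LY mice. All 4 AngII+LY mice lay above the 10 others. Cox7a1 stood at 21479.6, 49785, 40861 and 29746 normalized counts in the Ctrl mice, 34159 and 33334 in the LY mice, 35859.5, 17922, 35746 and 21905 in the AngII mice and 57673, 54521, 71848 and 70584 in the AngII+LY mice, again with all AngII+LY mice above the others. Against LY the log2 differences were 0.95 ± 0.36 for Cox8b and 0.92 ± 0.36 for Cox7a1 (edgeR adjusted p = 0.522 and 0.53). Kcnk3, a potassium channel of brown adipocytes and atrial muscle, stood at 5179, 3386, 6522 and 10755 in the AngII+LY mice and 2775, 1536, 3696 and 1238 in the AngII mice, and its highest values were those of AngII+LY 4 and Ctrl 2, the libraries rich in Myl7. Cpt1b, the muscle form of the carnitine transferase that admits fatty acids to mitochondria, was likewise highest in those 2 libraries. Its counts were low throughout, but with the exon bases it shares with Gm44502 they do not show low expression. Cpt1b stood at 1.74, 37.5, 7.56 and 5.74 normalized counts in the Ctrl mice, 17.6 and 8.75 in the LY mice, 2.07, 5.45, 13.2 and 6.62 in the AngII mice and 9.61, 1.18, 25.9 and 56.5 in the AngII+LY mice. The part of muscle RNA in these values was not tested.

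**Figure D3:**
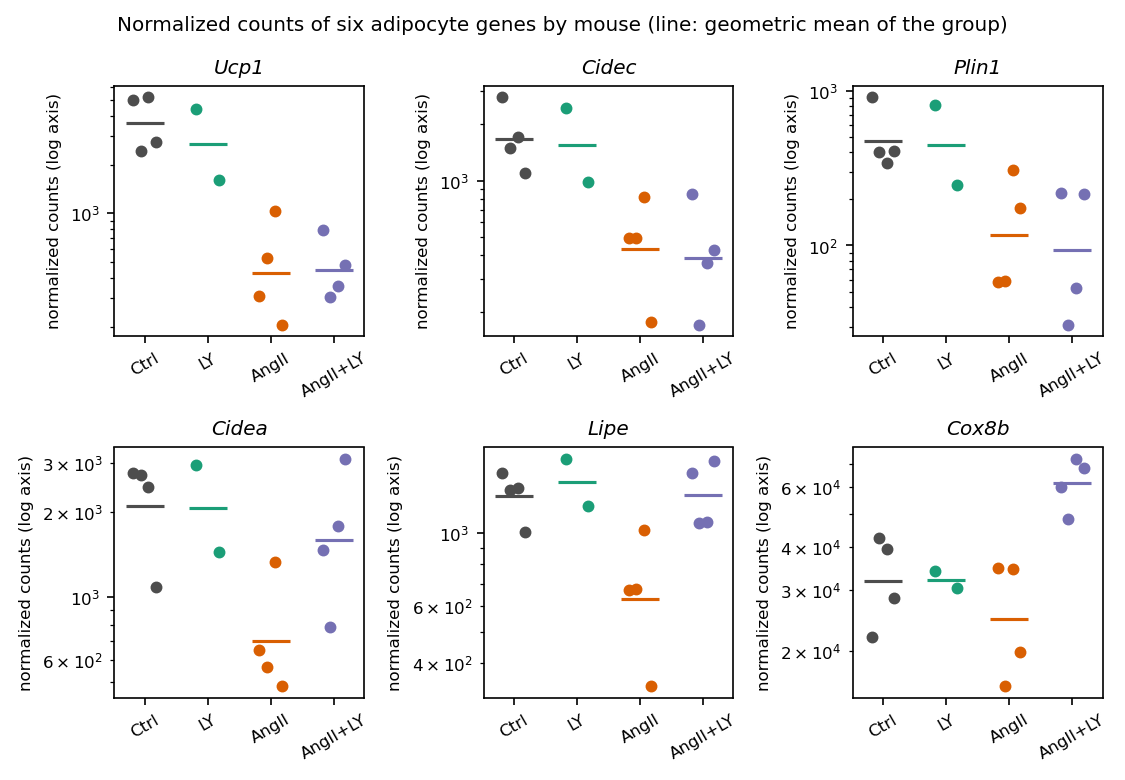
Normalized counts (log axis) of Ucp1, Cidec, Plin1, Cidea, Lipe and Cox8b, 1 point per mouse, with a line at the geometric mean of each group (4 Ctrl, 2 LY, 4 AngII and 4 AngII+LY mice). Ucp1 and Cidec are at or below 1037 in all 8 infused mice, Cidea and Lipe are low in AngII and near Ctrl in AngII+LY, and Cox8b is highest in AngII+LY.

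Among the general adipocyte genes, the droplet coat proteins Cidec and Plin1 were low with or without LY. Cidec stood at 2773, 1495, 1696 and 1094 normalized counts in the Ctrl mice, 2439.6 and 986 in the LY mice, 497, 492, 817 and 175 in the AngII mice and 846, 170.5, 363 and 424 in the AngII+LY mice. The highest infused mouse, AngII+LY 1, still lay below LY 2, the lowest of the others. Plin1, which guards the droplet against lipases, read 903, 404, 340.3 and 409.8 in Ctrl, 801 and 246 in LY, 57.9, 58.6, 309 and 175 in AngII and 218, 30.8, 53.3 and 214 in AngII+LY. For Plin1, AngII 3 lay above LY 2, and the 2 ranges of the infused groups overlapped. Plin4, a coat protein of new droplets that muscle also expresses, stood at 387 to 1491 in AngII and at 1313 to 2525 in AngII+LY, within the Ctrl range of 704 to 3254 for the latter.

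The secreted proteins varied widely between mice of the infused groups. Adipoq stood at 937, 675, 534 and 576 normalized counts in the Ctrl mice, 730.4 and 339 in the LY mice, 126, 101, 574 and 165 in the AngII mice and 649, 56.8, 213 and 114 in the AngII+LY mice. AngII 3 and AngII+LY 1 lay within the Ctrl range, and the other 6 infused mice lay below all Ctrl and LY mice. Cfd is adipsin, a complement protease. Cfd stood at 4512, 2995, 917 and 1491 normalized counts in the Ctrl mice, 2530.2 and 1317 in the LY mice, 806, 1127, 1998 and 275 in the AngII mice and 3617, 739, 815 and 829 in the AngII+LY mice. AngII+LY 1 stood alone in its group. Retn, which encodes resistin, ran from 33.1 to 229.5 in AngII, 163 to 622 in Ctrl, 117 to 603 in AngII+LY and 239 to 459 in LY. Lep encodes leptin. Lep stood at 265, 87.5, 52.9 and 40.9 normalized counts in the Ctrl mice, 230.2 and 95.4 in the LY mice, 0, 15.0, 129.8 and 0 in the AngII mice and 137, 0, 0 and 13.4 in the AngII+LY mice. It had no count in 4 of the 8 infused mice. Thus AngII 3 and AngII+LY 1 carried the highest values of their groups for all 4 secreted proteins.

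Pparg, the master factor of adipocyte differentiation, overlapped between all groups. Pparg stood at 522, 632, 547 and 239.7 normalized counts in the Ctrl mice, 577 and 374 in the LY mice, 302, 138, 409.8 and 222 in the AngII mice and 515, 405, 233 and 532 in the AngII+LY mice. Cebpa, which drives terminal differentiation with Pparg, read 193, 277, 210.3 and 179 in AngII, 305, 169, 402 and 209 in AngII+LY, 617 and 404 in LY and 826, 557, 389 and 348 in Ctrl. Its AngII and AngII+LY values all lay below both LY values, and AngII+LY 3 alone of the infused mice lay above the 2 lowest Ctrl values.

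Of the 3 lipolysis genes, Lipe and Aqp7 did not overlap between the infused groups and Pnpla2 did. Lipe, the hormone-sensitive lipase, read 671, 672, 1019 and 341 in AngII and 1519, 1069, 1078 and 1655 in AngII+LY, without overlap, beside 1519, 1350.4, 1364 and 1006 in Ctrl and 1676 and 1207 in LY. The log2 difference of Lipe between the infused groups was 0.97 ± 0.29 (edgeR adjusted p = 0.0863). The AngII mice took part in the choice of genes, so that higher values in AngII+LY were favoured by it. Pnpla2, the first lipase of the cascade, stood at 2958 to 6994 in AngII and at 5960.1 to 11862 in AngII+LY. Aqp7, the glycerol channel through which lipolysis products leave, read 746, 638, 1299 and 1073 in AngII+LY and 206, 268, 482 and 374 in AngII, beside 374 and 343 in LY. The AngII+LY values of Aqp7 exceeded all AngII and LY values, and only Ctrl 2 among the Ctrl mice, at 1021, came within their range. The highest Aqp7 values were those of AngII+LY 3, AngII+LY 4 and Ctrl 2. These libraries also had the largest cardiomyocyte shares (3.14%, 4.33% and 3.32%), and the part of muscle RNA was not tested.

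The synthesis genes were mixed. Gpd1, which supplies glycerol 3-phosphate for triglyceride, read 4537, 3412, 5274 and 2859 in Ctrl, 7010.5 and 2276 in LY, 842, 861, 1899 and 486 in AngII and 1521, 1213, 1985 and 3038 in AngII+LY. All AngII mice and 3 of 4 AngII+LY mice lay below both LY mice, and 53.1% of its exon bases lie under a transcript of the opposite strand. Pck1 serves the making of glycerol in fat. Pck1 stood at 2254, 1829, 2509.9 and 2177 normalized counts in the Ctrl mice, 3076 and 1129.5 in the LY mice, 508, 863, 2330.0 and 563 in the AngII mice and 1388, 251, 390.2 and 1053 in the AngII+LY mice. AngII 3 lay inside the Ctrl range, and all 4 AngII+LY mice lay below it. Agpat2, Dgat1 and Dgat2, acyltransferases on the path to triglyceride, had log2 differences of 0.78 ± 0.26, 0.18 ± 0.19 and 1.35 ± 0.55 between AngII+LY and AngII, and -0.04 ± 0.31, -0.04 ± 0.23 and -0.04 ± 0.66 between AngII+LY and LY.

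In AngII+LY the uptake genes did not go with the droplet genes Cidec and Plin1, which lay lower than in LY. Lpl is the lipoprotein lipase. Lpl stood at 16086, 55899, 32591 and 29723 normalized counts in the Ctrl mice, 41548 and 36529.8 in the LY mice, 42672, 27996, 93465 and 90722 in the AngII mice and 90857, 43914, 83164 and 91756 in the AngII+LY mice. All AngII+LY mice lay above both LY mice, and AngII overlapped with every group. Fabp4 stood at 44999.9, 37117, 41464 and 38788 normalized counts in the Ctrl mice, 36612 and 32504 in the LY mice, 28702, 18355, 43315 and 30799 in the AngII mice and 63859, 44011, 54868 and 45484 in the AngII+LY mice. The AngII+LY values of Fabp4 lay above all AngII and LY values. Of the remaining receptors and partners, Mrap, a partner of melanocortin receptors, stood at 341 to 584 in AngII, 689 to 995 in AngII+LY and 1079.7 to 1666 in LY, with no overlap between any pair of these 3 groups. Lgals12, a lectin of adipocyte droplets, ran from 2.07 to 88.9 in AngII, 27.0 to 236 in Ctrl, 14.4 to 76.9 in AngII+LY and 26.2 to 221 in LY. Tshr, the thyrotropin receptor, was at 0 in 7 of 14 libraries, and Acvr1c, an activin receptor, in 2. Exon bases of Dgat1 (54.6%), Adrb3 (44.4%), Plin4 (39.1%), Agpat2 (24.2%), Lipe (22.3%) and Elovl3 (18.3%) also lie under genes of the opposite strand. Their counts carry the same uncertainty as that of Cox8b.

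In the comparison that chose the genes, 33 of 37 members lay lower in AngII than in Ctrl, 11 of 14 thermogenic and 22 of 23 general. The median log2 difference was -0.66 over the thermogenic genes and -1.23 over the general genes, beside -0.06 over all genes tested, and -0.34 over the 6 genes that heart muscle also makes. Without Ctrl 2, which was rich in Myl7, the thermogenic median was -0.20, and without the 4 libraries that stood apart the general median was -0.59. The groups did not overlap for 10 members, all lower, where 7.56% of all genes tested were lower in this way. Without the 4 libraries that stood apart, 10 members were lower and 1 higher (Prdm16), where 15.4% and 13.6% of all genes were. With a correction for GC content 29 members lay lower, 8 of them thermogenic, the thermogenic median was -0.10, the general median was -0.68 and Cox8b turned to 0.14 from -0.34. Ucp1 then stood at -2.68 beside -2.88 ± 0.52 without the correction. All 5 smooth muscle markers also lay lower in AngII than in Ctrl (median -3.31), as did all 4 lymphocyte markers (-1.49). Both lists took their largest share in Ctrl 1, 0.887% and 0.00314% of counts. The other Ctrl mice stood at 0.0451% to 0.213% and 0.000758% to 0.00186%. Those ranges overlapped with AngII (0.0298% to 0.0800% and 0.000604% to 0.00136%). Of 10 cardiomyocyte markers 6 lay lower (median -0.61), while 7 of 8 valve interstitial markers lay higher (0.40). The share of the mitochondrial genome, given above, was higher in all AngII than in all Ctrl mice. The part of these differences in the member values was not tested.

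The AngII+LY and LY mice give the infusion contrast a second time with LY in both arms, in animals other than the AngII and Ctrl mice, although earlier results of these libraries were also known when the genes were listed. Ucp1 lay lower in all 4 AngII+LY mice, by a log2 difference of -2.64 ± 0.57, and Cidec and Plin1 followed at -1.93 ± 0.59 and -2.02 ± 0.81. EdgeR called no gene of the 19145 at an adjusted p under 0.05 and a log2 difference above 0.5 in either direction, that is 0% of genes and 0 of 37 members. The adjusted p of Ucp1 was 0.179. At an unadjusted p under 0.05, 7 members lay lower (Ucp1, Plin1, Cidec, Cebpa, Gpd1, Pck1 and Mrap) where 4.66% of all genes did, and 4 lay higher (Prdm16, Cox7a1, Cox8b and Aqp7) where 3.37% did. DESeq2 called 204 genes, 1.07%, and edgeR with its newer dispersion method called 3 (0.0157%) and no member, and among the members DESeq2 called Ucp1 alone, at an adjusted p of 0.00265. The groups did not overlap for 6 lower members (Ucp1, Elovl3, Plin1, Cidec, Cebpa and Mrap; 10.6% of all genes) and 6 higher ones (Prdm16, Cox7a1, Cox8b, Aqp7, Lpl and Fabp4; 8.46%).

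This comparison rests on 2 LY mice, and LY 1 had the higher value for all of the 7 lower members. Without LY 1 the difference was -1.75 for Ucp1, -1.13 for Cidec, -0.93 for Plin1, -0.55 for Pck1 and -0.23 for Gpd1. Without LY 2 it was -3.19 for Ucp1. Without the 4 libraries that stood apart, 6 members lay lower at an unadjusted p under 0.05 (5.79% of all genes) and 4 higher (3.72%), and with the GC correction 4 lay lower (3.39%) and 7 higher (7.25%). All 10 cardiomyocyte markers lay higher in AngII+LY than in LY, with a median log2 difference of 0.94. So did all 5 smooth muscle markers, with a median of 2.37, and 4 of 5 tested skeletal muscle markers, with a median of 2.19. Acta1 was the most abundant skeletal muscle marker, while Myh4, Myh1 and Myh2 of that list were at or near 0. The 8 skeletal muscle markers took 0.0407% to 0.139% of counts in AngII, 0.0115% to 0.0708% in Ctrl, 0.0587% to 0.277% in AngII+LY and 0.0257% to 0.0628% in LY. The part of these muscle types in the higher members was not tested.

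Set side by side with AngII against Ctrl, with which it shares no mouse, the sign was the same for 27 of 37 members, of which 23 were lower in both and 4 higher in both. Over all genes tested the sign was the same for 53.6%. Among the general genes 19 of 23 had the same sign, and among the thermogenic genes 8 of 14. The 10 members with opposite signs (Prdm16, Cox7a1, Cox8b, Cpt1b, Kcnk3, Slc36a2, Plin4, Aqp7, Fabp4 and Acvr1c) were lower in AngII than in Ctrl and higher in AngII+LY than in LY. Ucp1 stood at -2.88 and -2.64, and Cidec at -1.82 and -1.93. With the GC correction Prdm16 (0.54 and 1.17), Cox7a1 (0.28 and 1.06) and Cox8b (0.14 and 1.10) had the same sign in both comparisons. Lipe (-0.39 and 0.04), Agpat2 (-0.47 and 0.10) and Dgat2 (-0.68 and 0.08) then had opposite signs. The split between thermogenic and general genes therefore depends on this correction.

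**Figure D4:**
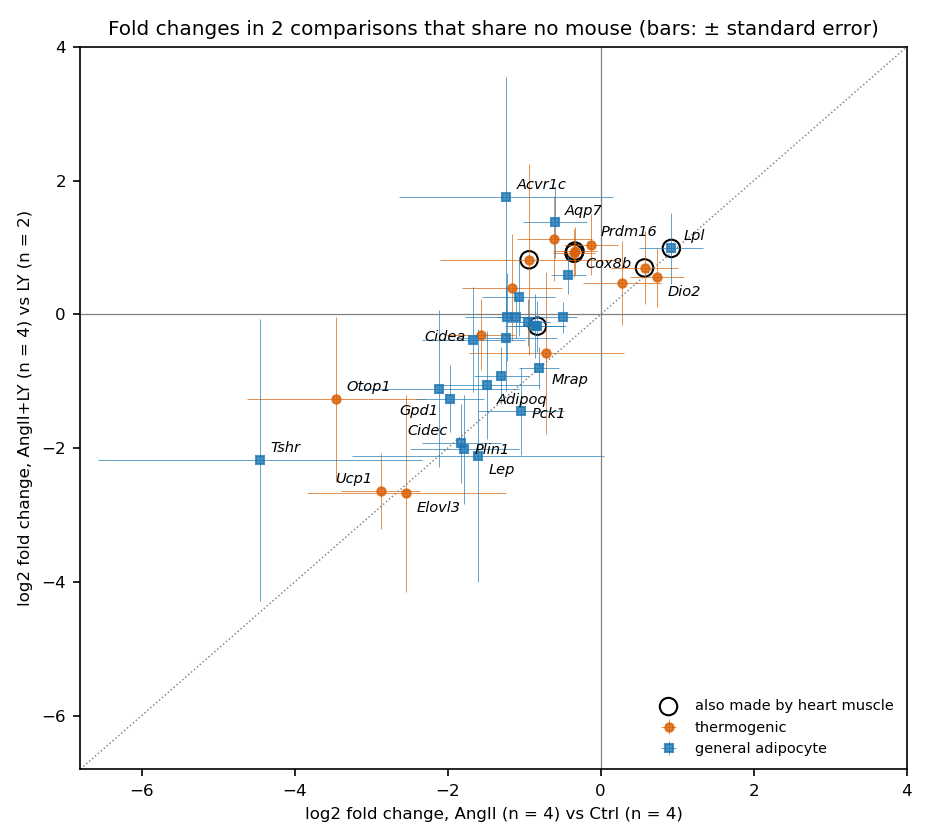
Log2 fold changes of the 37 members in AngII+LY against LY (vertical) and in AngII against Ctrl (horizontal), with standard errors, the dotted line marking equal values. Ucp1, Cidec and Plin1 lie low on both axes near the line, while Cox8b, Aqp7 and Prdm16 lie above 0 on the vertical axis alone.

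Between the infused groups, LY went with higher levels of part of the list, while Ucp1 overlapped. The AngII mice took part in the choice of genes, so that higher values in AngII+LY were favoured by it. In AngII+LY, 29 of 37 members lay higher than in AngII, with a median log2 difference of 0.76 over the thermogenic and 0.70 over the general genes, beside -0.02 over all genes. Without AngII+LY 4, a library rich in Myl7, the thermogenic median was 0.26. EdgeR called 0% of genes and no member, and with its newer dispersion method 0.919% of genes and no member. At an unadjusted p under 0.05, 12 members lay higher (Cidea, Cox7a1, Cox8b, Kcnk3, Plin4, Pnpla2, Lipe, Aqp7, Agpat2, Dgat2, Fabp4 and Mrap) where 10.1% of all genes did, and none lay lower where 12.4% did. DESeq2 called 2082 genes, 10.9%, and 8 members, all higher (Cidea, Cox7a1, Cox8b, Kcnk3, Lipe, Aqp7, Agpat2 and Fabp4). The groups did not overlap for 6 members, all higher (Cox7a1, Cox8b, Lipe, Aqp7, Fabp4 and Mrap), where 5.45% of all genes were higher in this way. The log2 differences were -0.12 ± 0.49 for Ucp1, -0.14 ± 0.50 for Cidec, -0.21 ± 0.70 for Plin1, -0.47 ± 0.56 for Pck1 and 0.09 ± 0.68 for Adipoq. Each of these 5 changed sign with the setting, from -0.46 to 0.46 for Ucp1, -0.69 to 0.44 for Plin1 and -0.92 to 0.99 for Adipoq, so that no direction was given by them.

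The count of 12 was 6 with the GC correction, where 8.99% of all genes lay higher, and 6 without the 4 libraries that stood apart, where 5.36% did, and the same 6 genes (Cox7a1, Cox8b, Kcnk3, Lipe, Aqp7 and Fabp4) made up both. Without the 4 libraries 1 member, Elovl3, lay lower, where 7.79% of all genes did. All 10 cardiomyocyte markers were higher and all 8 valve interstitial markers lower in AngII+LY than in AngII. Also higher were all 5 smooth muscle markers (median log2 difference 1.76) and 4 of 5 tested skeletal muscle markers (2.08). The part of this difference in tissue content in the member values was not tested. The mitochondrial genome took 9.83% to 25.5% of counts in AngII, 10.1% to 20.2% in AngII+LY, 8.62% to 9.76% in LY and 4.0% to 7.52% in Ctrl, and its part was not tested either.

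Against Ctrl, whose mice also took part in the choice, so that lower values in AngII+LY were favoured by it, the AngII+LY mice held 7 members lower at an unadjusted p under 0.05 (Ucp1, Elovl3, Plin1, Cidec, Cebpa, Gpd1 and Pck1; 6.14% of all genes) and 4 higher (Cox7a1, Cox8b, Aqp7 and Lpl; 4.89%). Ucp1 stood at -2.995 ± 0.52 with an edgeR adjusted p of 0.107, and DESeq2 called 1.79% of all genes, among them Ucp1 and Cidec lower and Cox8b higher. LY alone against Ctrl, with 2 LY mice and the same Ctrl mice, gave no member at an unadjusted p under 0.05, where 1.39% of all genes passed, and DESeq2 called 0.11% of all genes and no member. The log2 differences there were -0.35 ± 0.60 for Ucp1 and -0.04 ± 0.61 for Cidec.

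The interaction term sets the difference between AngII+LY and LY against that between AngII and Ctrl. It holds the difference that chose the genes, which favours a positive term, so it is given as a description without a test. On the log2 scale it was 0.23 ± 0.76 for Ucp1, -0.10 ± 0.79 for Cidec, 1.99 ± 0.68 for Aqp7 and 1.28 ± 0.46 for Cox8b.

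The ratio of Ucp1 to Adipoq sets the thermogenic gene against a general adipocyte gene within a library. The log2 ratio was 2.42, 1.84, 3.28 and 2.25 in Ctrl, 2.59 and 2.25 in LY, 1.28, 2.37, 0.85 and 0.31 in AngII and 0.28, 2.41, 0.73 and 2.07 in AngII+LY. AngII 2, AngII+LY 2 and AngII+LY 4 lay within the range of the mice without infusion. The mean was 2.45 ± 0.61 (SD, n = 4) in Ctrl, 2.42 ± 0.24 (n = 2) in LY, 1.20 ± 0.88 (n = 4) in AngII and 1.37 ± 1.03 (n = 4) in AngII+LY. The Ctrl and AngII mice took part in the choice of genes, so that tests against either group are not independent of it. A 2-sided exact permutation test gave p = 0.267 for AngII+LY against LY, where the smallest p it allows is 0.0667. For AngII+LY the same permutation test gave p = 0.171 against Ctrl and 0.857 against AngII, where the smallest is 0.0286. LY against Ctrl gave an exact p of 1, and over these 4 comparisons the adjusted values of the exact permutation test ran from 0.533 to 1. Set against Cidea instead, as a description, the log2 ratio of Ucp1 was -0.91, -1.36, -2.33 and -2.68 in AngII+LY, -1.08, -0.10, -0.37 and -1.23 in AngII, 0.58 and 0.16 in LY and 0.86, -0.16, 1.08 and 1.33 in Ctrl, so that all AngII+LY mice lay below all Ctrl and LY mice and overlapped with AngII.

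Genes were ranked by how closely their log2 counts followed Ucp1 over the 14 mice, a description in which mice share group and library makeup. Cidec came first with a Pearson r of 0.946, and Pck1 (0.874), Gpd1 (0.868), Plin1 (0.832) and Adipoq (0.825) were near, while Cidea reached 0.677 and Cox8b -0.156. Outside the list the closest were Adig (0.939), a membrane protein of differentiating adipocytes, Hp (0.915), which encodes haptoglobin, Inmt (0.896), a methyltransferase, Per2 (0.89), a repressor of the circadian clock, and Cib2 (0.881). Fasn, the fatty acid synthase, stood at 0.86. Adig ranged from 62.9 to 298 in the infused and from 336 to 647 in the other mice, Per2 from 1699 to 2604 and from 2893 to 3896, neither with overlap. Hp, Inmt, Cib2 and Fasn were also lower without overlap, as were 0.611% of all genes tested. Closeness to Ucp1, which splits the same mice, favours such a split. To the mean of Adipoq, Plin1, Cidec and Cfd, the closest genes outside the list were Hp (0.941), Rad51b (0.912), Ankef1 (0.899), Adig (0.872) and Car3 (0.864), the carbonic anhydrase of fat and muscle.

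Lists of related genes outside the 37 gave the following counts at an unadjusted p under 0.05, and edgeR called no gene of any of them. At that threshold 4.66% of all genes lay lower and 3.37% higher in AngII+LY than in LY, and 12.4% lower and 10.1% higher than in AngII. Of 8 further adipocyte markers, 3 lay lower in AngII+LY than in LY (4.66% of all genes) and none higher (3.37%). These were Adig (-1.54 ± 0.46), Trarg1 (-1.15 ± 0.42), a trafficking protein of the glucose transporter, and Nnat (-2.54 ± 1.02). Between AngII+LY and AngII, 3 others lay higher (Sncg, Sfrp5 and Cdo1) and none lower. Sfrp5 ran from 54.7 to 6564 normalized counts in AngII+LY, with a mean of 1692, and from 16.5 to 133 in AngII. Its difference rests largely on a single AngII+LY mouse. Of 20 enzymes and droplet genes of fat storage, Fasn (-0.95 ± 0.42) and Thrsp (-0.96 ± 0.44), which promote fatty acid synthesis, lay lower in AngII+LY than in LY and none higher, beside 4.66% and 3.37% of all genes. 3 of the 20, Slc2a4, G0s2 and Plin2, lay higher than in AngII and none lower, beside 10.1% and 12.4%.

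Of 15 further genes of the brown programme 11 were tested, and none differed at an unadjusted p under 0.05 between AngII+LY and LY. Esrra and Plin5, a receptor and a droplet protein of oxidative tissue, lay higher in AngII+LY than in AngII, by 1.05 ± 0.39 and 1.01 ± 0.46 (edgeR adjusted p = 0.14 and 0.215). Of 11 genes of fatty acid oxidation, 4 lay higher in AngII+LY than in AngII (Acadvl, Hadha, Cpt2 and Slc25a20) and 1 lower (Cpt1a), where 10.1% and 12.4% of all genes did, and none differed in this way from LY. None of 4 tested beige markers and none of 7 adrenergic and cyclic AMP genes differed in this way between AngII+LY and LY. Between AngII+LY and AngII, no beige marker did, and of the adrenergic genes Adrb1 and Prkaca lay higher and Prkar2b lower. Prkar2b ran from 1235 to 16154 normalized counts in AngII, with a mean of 5084, and from 526 to 1929 in AngII+LY. Its difference rests largely on a single AngII mouse.

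Of 8 genes of adipocyte progenitors and the stroma of fat, 5 lay lower in AngII+LY than in LY (Pdgfra, Pdgfrb, Dlk1, Zfp423 and Dpp4) and 2 higher (Pi16 and Ly6a), beside 4.66% and 3.37% of all genes. In comparison with AngII, 4 lay lower (Pdgfra, Zfp423, Cd34 and Dpp4), beside 12.4%. In AngII+LY against LY, Pdgfra, the receptor that marks fibroblast-like precursors and valve stroma, stood at -1.35 ± 0.38 and Zfp423, a factor of precursor commitment, at -1.17 ± 0.34 (edgeR adjusted p = 0.349 and 0.362). All 8 valve interstitial markers were lower in AngII+LY than in LY, and the part of valve stroma in these values was not tested.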

How the data were processed

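RNA from aortic valve leaflets of 14 mice was sequenced in bulk. Per the labels and the study's methods, the authors checked reads with FastQC, trimmed them, aligned them with HISAT2 (GRCm39 genome) and used featureCounts for gene counts; the versions of the last 2 and the strand setting are not given in the sources used here. The deposited table is named as normalized, but its values are whole counts with totals of 20990655 to 73128220 per library, and were used as counts. Among values of 1 to 20, 47957 were even and 30917 odd, and the cause was not tested. Of the 56941 gene IDs, 618 had no match in GENCODE M39, holding 0.0361% of counts.

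Genes with a mean of at least 10 counts were kept (19145). One quasi-likelihood model over all 4 groups was fitted with edgeR 4.0.16 at its default options (TMM, R 4.3.3), p-values were adjusted by Benjamini-Hochberg over all genes, and a call needed a log2 fold change beyond 0.5 in either direction with an adjusted p under 0.05. No label said whether samples of a group came from separate litters or days, so p-values measure the spread between these mice only. DESeq2 1.42.0, limma 3.58.1, a GC correction by loess, other filters, the replicate number as a block and each library left out were the alternatives. On simulated counts for AngII against Ctrl (18644 genes), edgeR recovered 82.5% of 200 genes changed by a log2 of 3. The changed genes were drawn from those with higher counts and all others were left unchanged. This share therefore does not give the power of the comparisons above. Ratios and figures used Python 3.11.15, scipy 1.17.1, pandas 2.3.3 and matplotlib 3.10.9. Upstream windows came from GRCm39 at the canonical starts of GENCODE M39, and may overlap other annotated transcripts of the gene.

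The members and gene lists were chosen with earlier results of these data known. All members were accounted for by role. From the lists of related genes, genes could be named from the 3 with the smallest p in AngII+LY against AngII or LY, and from the 10 closest to Ucp1 and to 4 adipocyte markers, of which only some are named; others named where a count was 5 or lower were chosen after their values were seen.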

Additional observations from a re-analysis of the deposited data

Results flagged for a closer look

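Of 51 sets of values (a gene within a group of 4 mice), 7 held 1 mouse far from the other 3 by Dixon's test, where chance gives about 1 in 20. Elovl3 stood at 29.7 normalized counts in AngII+LY 4, and Cpt1b at 37.5 in Ctrl 2, the libraries rich in Myl7. Plin1 stood at 903 in Ctrl 1, the library rich in Myh11. Adipoq stood at 574 and Lep at 129.8 in AngII 3, each far above the other AngII mice. Cfd stood at 3617 and Lep at 137 in AngII+LY 1, each far above the other AngII+LY mice.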

How the results depend on the processing

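With edgeR's defaults no gene was called in any comparison. DESeq2 called 2663 genes in AngII against Ctrl, 2082 in AngII+LY against AngII, 204 against LY, 343 against Ctrl, 21 in LY against Ctrl and 203 for the interaction. In the first 4 of these, limma called 336 in AngII+LY against AngII, 1 against LY and 4 against Ctrl with a pseudocount of 1, and 240, 403, 1 and 6 with 10. Without a filter edgeR called 123, 1, 1 and 13, and with the GC correction 1 in AngII+LY against LY. 2 alternatives were chosen after seeing the data: the newer dispersion method called 555, 176 and 3 genes in the first 3, and leaving out the 4 libraries that stood apart gave 1 against LY.

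Genes at an unadjusted p under 0.05 in AngII against Ctrl were 2804 with the GC correction and 1358 without the 4 libraries (4815 before), in AngII+LY against AngII 2518 without them (4315), and for the interaction 1562 and 1270 (2545). In LY against Ctrl (266) they were 428 with DESeq2, 485 with the newer method, 633 without a filter and 668 from these groups alone. The thermogenic median was -0.10 with the GC correction in AngII against Ctrl, 0.026 without the 4 libraries in AngII+LY against LY, and for the interaction 0.68 with limma at either pseudocount, 0.74 with GC and 0.20 without the 4 libraries. Without them the general median was -0.59 in AngII against Ctrl and 0.086 for the interaction. The cause was not tested.

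Same-numbered mice did not deviate together (18 pairs, r -0.128 to 0.0897), so the numbers do not pair them. The replicate block gave 4431 genes at an unadjusted p under 0.05 in AngII against Ctrl and a thermogenic median of 0.011 in AngII+LY against LY. The block with GC gave 2354 genes in AngII against Ctrl, 2463 in AngII+LY against AngII and 1379 for the interaction, thermogenic medians of -0.073 in AngII against Ctrl, 0.11 in AngII+LY against LY and 0.56 for the interaction, and 1 call in AngII+LY against Ctrl.

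With each library left out, calls ran from 0 to 1726 in AngII against Ctrl (highest without AngII 1), 0 to 842 in AngII+LY against AngII (without AngII 1), 0 to 1 against LY and 0 to 3 against Ctrl. Genes at an unadjusted p ran from 3178 to 5663 in AngII against Ctrl, 800 to 1826 in AngII+LY against LY, 113 to 383 in LY against Ctrl and 1290 to 3180 for the interaction. Thermogenic medians ran from -0.86 to -0.20, 0.26 to 0.98, 0.025 to 0.70, -0.56 to 0.023 and 0.65 to 1.32 in AngII against Ctrl, AngII+LY against AngII and LY, LY against Ctrl and the interaction, and the general median in AngII+LY against LY from -0.93 (without AngII+LY 1) to 0.15 (without LY 1). The log2 ratio of Ucp1 to Adipoq turned in AngII+LY against AngII (-0.18, -0.06 and -0.13 without AngII+LY 2, AngII+LY 4 and AngII 4) and in LY against Ctrl (range -0.23 to 0.25; 0.14 without LY 2, 0.25 without Ctrl 3). Of 516 summary values under an alternative 442 stayed close to the reported ones, 69 moved and 5 reversed. Ucp1 in AngII against Ctrl and the members at an unadjusted p under 0.05 in the other comparisons gave 828 values. Of these, 808 kept direction and call and 20 passed the threshold. For Ucp1 in AngII against Ctrl, which was not tested, only the direction was compared. Over all 37 members the sign changed under some setting for 11 in AngII against Ctrl, 14 in AngII+LY against AngII, 13 against LY, 14 against Ctrl, 28 in LY against Ctrl and 19 for the interaction. The 2 LY mice and the depth of AngII 4 limit what low genes can show.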
